A study of Homo sapiens with 27 samples.

Results

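Vehicle-treated LNCaP95 cells were compared with vehicle-treated 22Rv1 cells, the pair of castration-resistant prostate cancer lines of this study. The comparison used 6 of the 27 RNA sequencing libraries, 3 of each line, and the members are the genes with a normalised count of 10 or more in at least 3 of these 6 libraries. This held for 13758 of the 20987 genes in the deposited table. The study treated 3 human prostate cancer lines, LNCaP, 22Rv1 and LNCaP95, for 6 days with DMSO (the vehicle) or with 100 or 500 nM of IPI-9119, which blocks the enzyme fatty acid synthase. Both groups compared here received DMSO alone, without a change of medium during those 6 days. The labels call LNCaP androgen sensitive and the other two castration resistant, and they name no genetic change in any line. The 3 LNCaP libraries with DMSO, and the LNCaP95 and 22Rv1 libraries at the doses, are used below only to place the difference. Each line is 1 established culture, so a difference between the lines cannot be told apart from a difference between their growth media or handling, which the labels do not describe by line. Nothing in the labels tells if the replicates of a group were grown separately, so the p-values rest on a spread between libraries that may be technical.

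LNCaP was derived from a lymph node metastasis, and LNCaP95 descends from it through long culture without androgen. 22Rv1 was derived from a xenograft of another patient's tumour that relapsed after castration. Castration resistance is growth at castrate levels of androgen. Androgen signalling usually remains active in such tumours, for instance through steroid made inside the tumour. The glucocorticoid receptor can drive part of the same genes, and some resistant tumours switch on genes of neuroendocrine, liver or gut epithelium.

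Libraries held 20584712 to 23565696 reads in genes in LNCaP95 and 15642743 to 19061854 in 22Rv1. Pearson correlations of log2(value + 1) across the tested genes, which are not independent replicates, ran from 0.984 to 0.993 within a line and from 0.704 to 0.733 between the lines. Replicate 3 of 22Rv1 stood apart at low counts. It had reads in 18444 genes, against 15641 and 15860 in the other 22Rv1 libraries with DMSO, and of 3383 genes at 0 in the other 8 22Rv1 libraries 1528 had reads there, at most 16 in 1 gene. Replicate 1 of LNCaP95 held traces of genes that are high in 22Rv1: over 27 genes with a 22Rv1 mean of at least 1000 and at most 3 in the other 8 LNCaP95 libraries, their summed value was 0.12% of the 22Rv1 level, against 0.0165% and 0.0285% in replicates 2 and 3. That rule limits every LNCaP95 library except replicate 1, so this contrast is partly set by how the genes were chosen. No value is given for another library left free in its place. Results near 0 in one line rest on replicate 3 of 22Rv1 and replicate 1 of LNCaP95. Where values of both lines are printed below, in the order LNCaP95 and 22Rv1 unless named, those of one line did not overlap those of the other, except where overlap is stated.

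The lines differed at most expressed genes. With limma on log2(value + 1) and an adjusted p under 0.05, 10369 genes were called (75.4% of those tested), 4797 higher and 5572 lower in LNCaP95. At 2-fold or more, 2337 genes were higher in LNCaP95 (17.0%) and 3246 lower (23.6%), and 332 were at least 16-fold higher and 988 at least 16-fold lower. The values of the 2 groups did not overlap for 10827 genes (78.7%). The median log2 difference, LNCaP95 minus 22Rv1, was -0.06 over all tested genes. Scaling each library to the same total moved this median by 0.14 to 0.07. The share of the 2-fold calls that were higher in LNCaP95 was 41.9% as deposited, 47.9% with equal totals and 52.2% after quantile normalisation, so which line holds more of the higher genes is set by the scaling. Because most genes were called, a call alone says little, and each group of genes below is read against the shares of 17.0% and 23.6%.

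**Figure D1:**
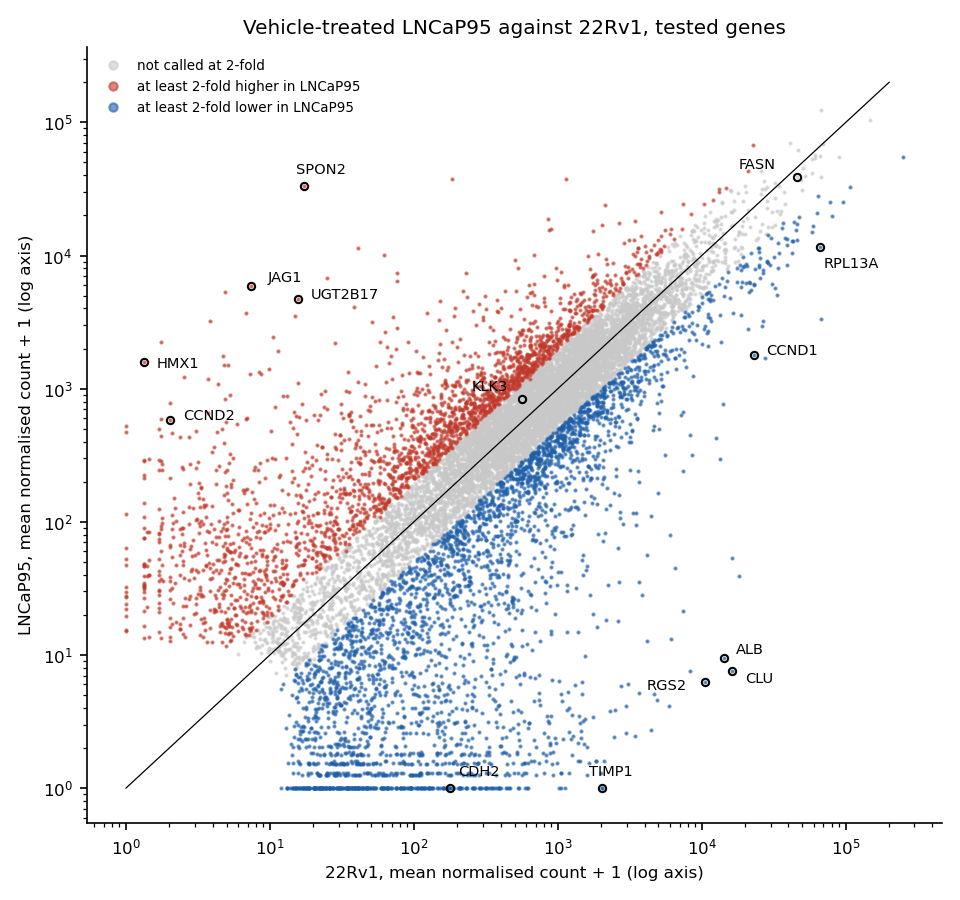
Mean normalised count plus 1 of each tested gene in 22Rv1 (x, log axis) and LNCaP95 (y, log axis), 3 DMSO libraries each; colours mark calls at 2-fold or more, the line marks equal levels, and genes placed on the Y chromosome or in its pseudoautosomal part are not plotted. Genes along the lower edge are at or near 0 in LNCaP95, and fewer lie along the left edge, near 0 in 22Rv1.

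The same difference was measured in other libraries of these lines, those with IPI-9119. At 100 nM, 2567 genes were at least 2-fold higher in LNCaP95 (18.7%) and 3242 lower (23.6%), and at 500 nM 2467 were higher (17.9%) and 3224 lower (23.4%). Of the genes higher with DMSO, 1938 were also higher at 500 nM, which is 82.9% of the DMSO calls and 78.6% of the 500 nM calls. Of the genes lower with DMSO, 2681 were also lower at 500 nM, 82.6% and 83.2% of the respective calls. At 500 nM 6 genes were called in the opposite direction at 2-fold or more. LNCaP lay nearer to LNCaP95 than to 22Rv1 on the log2 scale for 824 of the 988 genes (83.4%) that were at least 16-fold lower in LNCaP95, and for 195 of the 332 (58.7%) that were at least 16-fold higher. Over all genes at 2-fold or more it did so for 67.4% of those lower and 61.3% of those higher in LNCaP95. A line with low values of such genes falls nearer to whichever line is low, and no share over all tested genes is given. These shares alone therefore say nothing about descent.

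Many genes were read in one line and almost not in the other. For 319 genes with a 22Rv1 mean of at least 50, the 3 LNCaP95 libraries together held at most 3 reads, and for 134 of these they held 0. LNCaP also had a mean under 10 for 268 of the 319. SERPINB1, a protease inhibitor of the cytoplasm, was at 0 in every LNCaP95 library and at 2153, 2089.8 and 1879 in 22Rv1, at least 2523-fold higher in 22Rv1 against a floor of 3 reads over the group. TIMP1, an inhibitor of matrix metalloproteinases, was at 0 in LNCaP95 and at 2383, 1851 and 1822 in 22Rv1, at least 2485-fold higher. NNT, which encodes the mitochondrial enzyme that makes NADPH from NADH, had 2 reads in LNCaP95 and values of 1471, 1901 and 2185 in 22Rv1, a ratio of 3509-fold (95% counting interval 971 to 28986). Complement component C5 (1746, 2377 and 2140.1 in 22Rv1), the kinase MATK (2244, 1903 and 1875), the membrane glycoprotein GPM6A (1722, 1801 and 1962), the matrix protein NPNT (1767, 1566 and 1434), the calcium-binding S100A6 (1392, 1339 and 1542) and the LIM protein CSRP2 (1514, 1293 and 1304) each had 1 or 2 reads in LNCaP95. Intervals and floors here cover counting error only.

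The reverse set was smaller. For 53 genes with an LNCaP95 mean of at least 50, the 22Rv1 libraries together held at most 3 reads, and 5 of them were at 0. With replicate 3 of 22Rv1 left out, and at most 2 reads allowed in the other two libraries, the number was 108, an alternative chosen after seeing the data. The same step for replicate 1 of LNCaP95 gave 335 genes near 0 in LNCaP95. HPR, a relative of haptoglobin whose reads may be shared with it, was at 466, 603 and 508 in LNCaP95 and at 0 in 22Rv1, at least 450.2-fold higher in LNCaP95. NAA11, an N-terminal acetyltransferase subunit, was at 503, 429.7 and 479 and at 0, at least 400.3-fold higher. The homeobox genes IRX4 (2158, 2328 and 2263 in LNCaP95) and HMX1 (1447, 1793 and 1497) had 2 reads and 1 read in 22Rv1, ratios of 2883-fold (95% counting interval 798 to 23808) and 4051-fold (95% counting interval 727 to 160051). CCND2, which encodes the G1 cyclin D2, was at 557, 691 and 495 in LNCaP95 and at 0, 0 and 3.09 in 22Rv1, with its 3 reads all in replicate 3. LNCaP was near 0 for CCND2, HMX1, S100A16, CPA6 and NAA11 and had means of 494, 524 and 451 for HPR, IRX4 and MAGEA10.

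Among genes read in both lines, SPON2, a secreted matrix protein of prostate, was highest by difference in LNCaP95, with 33464, 35267 and 30302 there and 21.1, 13.2 and 14.4 in 22Rv1, a log2 difference of 10.93 ± 0.16 (adjusted p = 3.8e-10). PAGE1, a cancer-testis gene (10.06), PLA2G2A, a secreted phospholipase (9.83), JAG1, a Notch ligand (9.72), the phosphoinositide 3-kinase subunit PIK3CD (9.46), the peroxidasin PXDN (9.29), BMP7, a bone morphogenetic protein (8.94), and the redox protein NXN (8.77) followed, all higher in LNCaP95. PXDN was at 0 in replicates 1 and 2 of 22Rv1 and at 12.4 in replicate 3. Lowest by difference in LNCaP95 was RGS2, a brake on G protein signalling, with 11098, 10516 and 9904 in 22Rv1 and 15.8, 0 and 0 in LNCaP95. All of its reads in LNCaP95 were in replicate 1. CLU, the secreted chaperone clusterin, was at 16622, 15638 and 16527 in 22Rv1 and 17.6, 0.783 and 1.52 in LNCaP95 (-11.86 ± 0.69, adjusted p = 2.1e-07), and the lysosomal fucosidase FUCA2 (-10.26), the annexin partner S100A10 (-10.92) and the tetraspanin TSPAN8 (-10.18) were lower in LNCaP95 as well. In each of these the highest LNCaP95 value was that of replicate 1. Without it the log2 differences were -13.36 for RGS2 (-12.00 with it), -12.91 for CLU, -11.73 for S100A10 and -10.85 for FUCA2, and without replicate 3 of 22Rv1 they were 10.54 for PXDN and 10.14 for PIK3CD. The smallest differences with 1 library left out were -11.21 for CLU, -11.32 for RGS2, 8.67 for PXDN and 8.84 for PIK3CD.

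Genes of steroid receptor action were mostly within 2-fold between the lines. NR3C1, the glucocorticoid receptor, was at 642, 592 and 408 and 206, 283 and 236 (1.16 ± 0.19, adjusted p = 2.9e-04) and at 3.46, 11.4 and 4 in LNCaP. FOXA1, a pioneer factor of prostate epithelium, was lower in LNCaP95 (-0.75 ± 0.11, adjusted p = 1.1e-04), the coactivator NCOA1 was higher (1.47 ± 0.17), and HOXB13 had overlapping values and a difference of 0.01 ± 0.09 (adjusted p = 0.94), whose sign depended on the setting. Of 18 genes listed for steroid receptor action, 2 were at least 2-fold higher in LNCaP95 (NCOA1 and NR3C1) and 1 lower (FKBP5), with a median of -0.07. Both shares were under those of all tested genes.

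Genes known to be induced by androgen did not differ in one direction. Of 36 listed, 33 were tested, 16 were at least 2-fold lower in LNCaP95 and 6 higher, with a median of -0.70 against -0.06 for all genes. The share lower was above the 23.6% of all tested genes, and the share higher was near their 17.0%. KLK3, which encodes prostate-specific antigen, was at 854, 751 and 900.1 in LNCaP95 and 625, 568 and 494 in 22Rv1, 0.57 ± 0.12 higher in LNCaP95 (adjusted p = 0.0016), and at 12816, 12836 and 11703 in LNCaP. Its neighbour KLK2, which encodes a related protease, differed the other way, with 296, 351 and 307 and 928, 857 and 743 (-1.40 ± 0.12, adjusted p = 3.5e-06). FKBP5, a chaperone partner of steroid receptors that both androgen and glucocorticoid induce, was at 1997, 2174 and 2092 in LNCaP95 and 9294, 11201 and 12738 in 22Rv1, lower by 5.26-fold (adjusted p = 5.7e-08). LNCaP, at 1193, 657 and 681, was lower still. The serine protease TMPRSS2 (-1.23 ± 0.19), AZGP1, a secreted prostate glycoprotein (-5.37 ± 0.12), PMEPA1, an inhibitor of TGF-beta signalling (-3.24 ± 0.13), and ZBTB10, a zinc finger repressor (-4.84 ± 0.21), were lower in LNCaP95. Higher were SORD, sorbitol dehydrogenase (1.87 ± 0.09), and ABCC4, a drug and prostaglandin exporter (3.12 ± 0.15).

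KLK3 and PMEPA1 of this list had a match to the androgen response element just upstream of their start. The motif searched was the inverted repeat of AGAACA with 3 bases, NNN, between the repeats, which reads the same on both strands, with at most 2 mismatches outside the spacer. The windows below, from RefSeq promoters on GRCh38.p14, show the match in capitals and are printed because these genes carry such a match and differ in opposite directions between the lines.
KLK3: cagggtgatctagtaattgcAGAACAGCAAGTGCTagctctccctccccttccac
PMEPA1: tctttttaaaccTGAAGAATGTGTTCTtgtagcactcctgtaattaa
The KLK3 window is chr19:50854725-50854779 on the plus strand, with the match 170 to 156 bases before the start. The PMEPA1 window is chr20:57710781-57710827 on the minus strand, with the match 238 to 224 bases before the start of 1 of the gene's listed transcripts. Such a match, in any promoter listed for a gene (250 bases before to 50 after a start), was held by 475 of 27305 genes in the promoter table (1.74%) and by 110 of the 11059 tested genes found there (0.995%). It was held by 1.98% of genes at least 16-fold higher and 1.08% of those at least 16-fold lower in LNCaP95. Of the androgen-induced list 24 genes had a promoter in the table and 2 had the match. KLK3 was higher and PMEPA1 lower in LNCaP95, with these letters present in both cases.

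The list of genes that androgen represses leaned the other way. Of 14 tested, 11 were at least 2-fold higher in LNCaP95 and 3 lower, with a median of 3.19, and all 14 passed the test. UGT2B17, which inactivates testosterone and dihydrotestosterone by adding glucuronic acid, was at 4699.6, 4777 and 4629.8 in LNCaP95 and 5.27, 26.5 and 12.4 in 22Rv1 (8.48 ± 0.42, adjusted p = 6.7e-08). UGT2B15, an enzyme of the same kind, was at 14198, 17256 and 16068 and 814, 996 and 857 (4.15 ± 0.11, adjusted p = 1.9e-09). These genes are near-identical copies and may share reads. CAMK2N1, an inhibitor of a calmodulin kinase, was at 4246, 5442 and 3902 and 192, 112 and 149.5 (4.91 ± 0.19). The 3 members lower in LNCaP95 were HPGD, which breaks down prostaglandins (4834, 4921 and 4778 in 22Rv1 and 5.28, 2.35 and 3.04 in LNCaP95), CDH2, which encodes N-cadherin (146, 178 and 209 in 22Rv1 and 0 in LNCaP95, at least 225-fold), and the esterase BCHE (-4.81). In LNCaP the UGT2B17 values were 1038, 4214 and 4556, so replicate 1 of that line was below the other two.

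Of the enzymes of androgen synthesis and breakdown, the AKR1C genes were higher in 22Rv1 and the UGT2B genes in LNCaP95. AKR1C3, which converts androstenedione to testosterone, was at 38.7, 46.2 and 52.4 in LNCaP95 and 1716, 1542 and 1527 in 22Rv1, 34.3-fold lower in LNCaP95 (adjusted p = 3.1e-09). The log2 difference of AKR1C3 was -5.10 with DMSO, -1.80 at 100 nM and -1.63 at 500 nM. AKR1C2, which inactivates dihydrotestosterone and is a near-identical copy, was at 37, 34.4 and 40.2 and 439, 389 and 341 (-3.35 ± 0.16). SRD5A1, steroid 5-alpha reductase, had overlapping values (441, 441 and 434 and 390.1, 443 and 412, difference 0.08 ± 0.11). HSD3B1 and SLCO1B3 were not tested, with means of 7.19 and 0 in LNCaP95 and 0.344 and 0 in 22Rv1, and STEAP4 was at means of 0 and 7.11. In the list of androgen synthesis and glucuronidation, 3 of 12 tested genes were at least 2-fold higher in LNCaP95 and 5 lower (median 0.04). Of 12 tested surface antigens used as drug targets, 5 were higher, FOLH1, the prostate-specific membrane antigen gene (5994, 5056 and 4521 in 22Rv1 and 13759, 13513 and 14485 in LNCaP95), CD276 (1.69 ± 0.09) and EPCAM (1.27 ± 0.09) among them, and 2 lower, KLK2 among them.

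**Figure D2:**
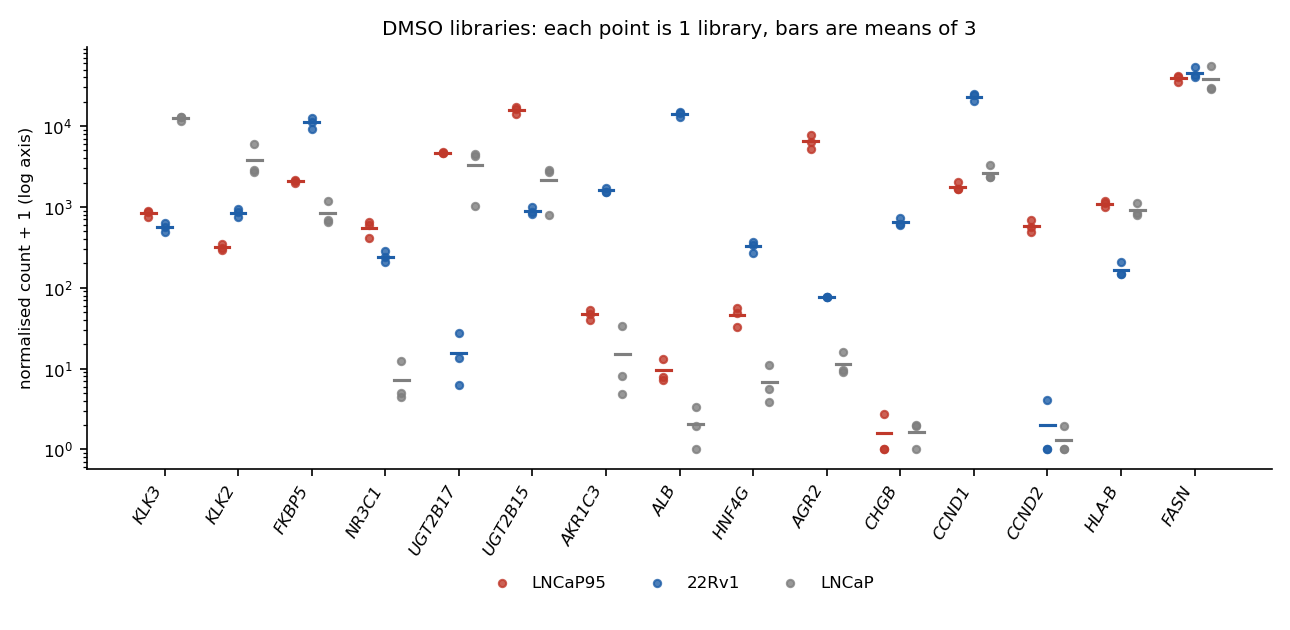
Normalised count plus 1 (log axis) of 15 genes in each DMSO library of LNCaP95, 22Rv1 and LNCaP; points are libraries and bars are means of 3. FASN values overlap in LNCaP95 and 22Rv1, while UGT2B17, ALB, CHGB and CCND2 are near the bottom in one of them.

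Genes of liver and gut were read at high level in 22Rv1. ALB, which encodes serum albumin, was at 12847, 14612 and 15097 in 22Rv1 and 12.3, 6.26 and 6.83 in LNCaP95 (-10.60 ± 0.21, adjusted p = 8.3e-10). The plasma protein genes AMBP (387, 391 and 355 against 1.76, 1.57 and 2.28) and APOH (121, 132 and 123 against 0, at least 156-fold) were also higher in 22Rv1. The difference was not general over liver genes. Of 22 listed only 8 were tested, 5 of them at least 2-fold lower in LNCaP95 and 1 higher (UGT2B7, 5.08 ± 0.26), and the other 14, FGA, FGB, APOB and SERPINA1 among them, were below the filter. Of 14 gut genes 10 were tested and all passed, 7 at least 2-fold lower in LNCaP95 and 3 higher. The microvillus protein VIL1 was at 1819, 1554 and 1905 in 22Rv1 and 14.1, 15.7 and 28.1 in LNCaP95, and the cadherin CDH17 at 178, 161 and 200.1 and 0, 0 and 0.759, while AGR2, a disulfide isomerase of mucus-secreting cells, was higher in LNCaP95, at 5246, 7663 and 6400.5 against 75.1, 75.8 and 75.3 (6.38 ± 0.13). LNCaP had a mean of 10.5 for AGR2 and 1.09 for ALB.

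Transcription factors of the liver differed in both directions. HNF4G, a nuclear receptor of gut and liver, was at 268, 341 and 362 in 22Rv1 and 55.5, 31.3 and 47.1 in LNCaP95 (-2.86 ± 0.23), and NR1H4, the bile acid receptor FXR, at 113, 102 and 106 with 1 read in LNCaP95, a ratio of 399-fold (95% counting interval 71.1 to 15836). All 6 tested factors of 10 listed passed at 2-fold, 4 lower in LNCaP95 and 2 higher. HNF4A itself was below the filter, with means of 0.554 in LNCaP95 and 6.65 in 22Rv1.

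Promoters of listed genes were searched for a motif known from liver promoters, the inverted repeat of GTTAAT with 1 base, N, between the repeats and at most 2 mismatches. The 5 tested genes of the liver, hepatic factor, gut and androgen lists with a match are shown, with the match in capitals. They were picked by this match, after their values were seen, and the sequences are RefSeq promoters on GRCh38.p14.
ALB: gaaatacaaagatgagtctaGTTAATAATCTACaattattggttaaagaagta
APOH: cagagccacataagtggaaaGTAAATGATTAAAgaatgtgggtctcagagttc
NR1H4: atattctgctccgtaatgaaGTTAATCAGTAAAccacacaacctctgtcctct
SPINK1: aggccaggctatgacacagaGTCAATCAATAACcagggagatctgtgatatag
DDC: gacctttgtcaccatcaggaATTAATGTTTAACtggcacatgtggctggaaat
The ALB window is chr4:73404206-73404258 on the plus strand and its match lies 61 to 49 bases before the start. The APOH window is chr17:66229523-66229575 on the minus strand, with the match 140 to 128 bases before the start. The NR1H4 window is chr12:100503287-100503339 on the plus strand, with the match 53 to 41 bases before the start. The SPINK1 window is chr5:147831696-147831748 on the minus strand, with the match 57 to 45 bases before the start. The DDC window is chr7:50565439-50565491 on the minus strand, with the match 66 to 54 bases before the start. All 5 matches have 2 mismatches to the repeat.

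ALB, APOH, NR1H4 and SPINK1 were higher in 22Rv1. SPINK1, a trypsin inhibitor of pancreas and gut, was at 3558, 2809.6 and 2598 in 22Rv1 and 7.04, 0.783 and 1.52 in LNCaP95. DDC, the decarboxylase that makes dopamine and serotonin, was higher in LNCaP95, at 4929, 3763 and 2550.2 against 340.0, 417 and 398 (3.23 ± 0.20). Of the liver-type genes 15 had a promoter in the table, and 5 of these had the match. FGA, FGB and F2 among them were below the filter in both lines. The match was held by 441 of 27305 genes (1.62%), by 1.03% of the tested genes in the table, by 25 of 744 genes (3.36%) at least 16-fold lower in LNCaP95 and by 5 of 253 (1.98%) at least 16-fold higher. Promoters listed per gene numbered 1.47 among tested genes and 1.51 and 1.60 in these groups. A match is a description of the letters, and binding was not measured.

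Markers of other cell types were checked as lists. Of 13 luminal prostate markers all were tested, 2 at least 2-fold higher in LNCaP95 and 3 lower, with a median of 0.08. These shares were near the 17.0% and 23.6% of all tested genes. KRT19, a keratin of simple epithelia, was at 268, 363 and 317 in LNCaP95 and 6412, 5187 and 5065 in 22Rv1, and ACPP, prostatic acid phosphatase, at 959, 1104 and 1095 and 171, 199 and 197. Of 10 basal markers 4 were tested, and TP63, KRT5 and KRT14 had means of at most 2.9 in both lines. ITGB4 was higher in LNCaP95 (3.81 ± 0.20), and the median of the 4 was -0.53, or 0.37 after quantile normalisation. Of 11 fibroblast and smooth muscle markers 7 were tested, 3 higher in LNCaP95 and 2 lower. The summed value of all 11 was 2081 to 2478 in LNCaP95 and 652 to 736 in 22Rv1. Most of the LNCaP95 sum came from LUM and COL1A1. The mean log2 level of the 7 tested overlapped, at 5.96 to 6.08 in LNCaP95 and 5.75 to 6.02 in 22Rv1. Their median difference was 0.07. The 2 lower members were DCN (-3.85), with 3 reads in LNCaP95, and COL3A1 (-1.78), a call lost after quantile normalisation. LUM, a matrix proteoglycan, was at 1548, 1275 and 1176 and 87, 93.9 and 129 and COL1A1 at 693, 892 and 619 and 261, 202 and 210.4, while THY1 and DES were at 0 in both. Of 8 endothelial markers 1 was tested (ESAM, -1.33 ± 0.26, a call lost after quantile normalisation), with PECAM1 at 0 in both lines. Of 9 leukocyte markers 3 were tested, 1 at least 2-fold higher in LNCaP95 (PTPRC, 93.3, 99.4 and 66 and 1.32, 1.2 and 9.28) and 1 lower.

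Most tested neuroendocrine genes were higher in 22Rv1. Of 13 listed 9 were tested, 6 at least 2-fold lower in LNCaP95 and 1 higher, with a median of -4.06. The granule proteins CHGB (734, 616 and 588 in 22Rv1 and 1.76, 0 and 0 in LNCaP95) and SCG3 (1556, 1827 and 1574 and 0.88, 0.783 and 0) and the vesicle protein SYP (1244, 1169 and 1157 and 4.4, 0 and 4.55) were near 0 in LNCaP95. CHGA, chromogranin A, was at 67.2, 55.4 and 50.5 and 0.88, 0.783 and 1.52, and the neuronal enolase ENO2 at 3712, 3326 and 3589 and 566, 528 and 669. SYT4, a member that was not called, had the highest values of the list, 3010 to 7625 in LNCaP95 and 5302 to 6213 in 22Rv1, with overlapping groups.

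Epithelial and mesenchymal genes were mixed. CDH1, which encodes E-cadherin, was at 12456, 11063 and 11173 in LNCaP95 and 5181, 6047 and 6173 in 22Rv1, a difference just under 2-fold, and the tight junction gene OCLN was higher in LNCaP95 (2.00 ± 0.13), while KRT7 (-6.33) and CLDN7 (-1.96) were lower. Of 19 tested junction and keratin genes 6 were higher and 4 lower (median -0.18). Among 8 tested mesenchymal genes, fibronectin FN1 (10611, 8735 and 8353 and 486, 508 and 526, 4.18 ± 0.10) and vimentin VIM (1.40 ± 0.10) were higher in LNCaP95. TWIST1, a repressor of E-cadherin (625, 480.3 and 473 in 22Rv1), the hyaluronan receptor CD44 (1302, 1544 and 1508) and CDH2 were near 0 in LNCaP95. In this list 3 were higher in LNCaP95 and 4 lower (median -1.36).

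FASN, the target of the study's drug, did not pass the test as deposited, and its direction depended on the scaling. It was at 40436, 41132 and 34549.5 in LNCaP95 and 53463, 39826 and 43153 in 22Rv1, overlapping, with a difference of -0.23 ± 0.13 (adjusted p = 0.15) that turned to 0.25 after quantile normalisation, a call in the other direction (adjusted p = 0.036). ACACA, which makes malonyl-CoA, was higher in LNCaP95 (0.41 ± 0.10, adjusted p = 0.0032, or 0.069 in 1 fit of all 27 libraries), and ACLY, which makes acetyl-CoA from citrate, was lower (-0.49 ± 0.10, adjusted p = 9.8e-04). Of 10 tested genes of fatty acid synthesis and supply, 1 was at least 2-fold higher, the malic enzyme ME1 (3468, 3686 and 3383 and 183, 187 and 198, 4.21 ± 0.09), and 3 lower, among them the citrate carrier SLC25A1 (-1.06 ± 0.11) and ACSS2, which makes acetyl-CoA from acetate (-1.05 ± 0.14). With 10 genes tested, these counts lie near the 17.0% and 23.6% of all tested genes. Only 1 stayed lower at 2-fold with equal totals, or without replicate 1 of 22Rv1, and the list's median of -0.17 became 0.09 after quantile normalisation.

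Desaturation divided by enzyme. SCD, the main delta-9 desaturase, was at 6626, 4453 and 6592 in LNCaP95 and 9875, 13274 and 13882 in 22Rv1 (-1.08 ± 0.18, adjusted p = 3.0e-04). Its homolog SCD5 was higher in LNCaP95, at 321, 322 and 230.0 against 9.23, 6.02 and 10.3 (4.95 ± 0.25), and so was FADS2, the delta-6 desaturase, at 19556, 14586 and 16622 against 2348, 1779 and 1925 (3.07 ± 0.13). The elongases ELOVL2 (0 in LNCaP95, 128, 193 and 286 in 22Rv1) and ELOVL4 (-4.01 ± 0.23) of very long chains were lower. Of 15 tested genes of this kind 3 were higher and 4 lower (median -0.46), with 2 lower under equal totals or without replicate 2 of LNCaP95. As a list they were thus near the shares of all tested genes, 17.0% higher and 23.6% lower.

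Cholesterol synthesis genes were lower in LNCaP95 or under 2-fold. All 20 were tested, 0 at least 2-fold higher and 7 lower, with a median of -0.63, or -0.49 with equal totals. Of all tested genes 23.6% were lower as deposited. With equal totals 5 of the 20 were lower, beside 2937 of all 13758 tested genes, so that count was near the share of all genes. It was also 5 with array weights or without replicate 1 of 22Rv1. HMGCS1, which makes HMG-CoA, was at 2006, 1791 and 2114 in LNCaP95 and 6978, 5919 and 7019.5 in 22Rv1 (-1.75 ± 0.10), and MVD (-2.39 ± 0.16), the sterol reductase TM7SF2 (-2.13 ± 0.12) and squalene synthase FDFT1 (-1.47 ± 0.10) were lower as well. SREBF1, a master factor of lipid synthesis, was at 6114, 6046 and 6306 and 15033, 12248 and 12052 (-1.08 ± 0.10, adjusted p = 5.5e-06). The sterol exporter of lysosomes NPC1 was higher in LNCaP95 (2.22 ± 0.10) while its partner NPC2 was lower (-1.52 ± 0.09). Of these 14 SREBP factors, regulators and uptake genes 3 were higher and 6 lower (median -0.67).

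In fatty acid oxidation, AMACR, the racemase of branched fatty acids and a stain for prostate cancer, was at 4031, 4193 and 3601 in LNCaP95 and 300.5, 349 and 303 in 22Rv1 (3.63 ± 0.10, adjusted p = 2.8e-09). CPT1A, which admits fatty acids to mitochondria, was at 3415, 3091 and 3541 and 3081, 3050.4 and 3082, a difference of 0.12 ± 0.08 that was not called (adjusted p = 0.2). DECR1, needed for polyunsaturated chains, was lower in LNCaP95 (-3.39 ± 0.10), and ACADL was at 0 there and at 335, 386 and 377 in 22Rv1, at least 457-fold. Over 25 genes 5 were higher and 7 lower (median -0.19), with 3 higher without replicate 1 of LNCaP95. These counts were near the shares of all tested genes, 17.0% and 23.6%. Of 14 tested uptake, binding and activation genes 2 were higher (ACSL1, 2.57 ± 0.10, and ACSL4, 1.62 ± 0.16) and 6 lower, with FABP5, a fatty acid carrier, at 0.88, 0 and 0.759 in LNCaP95 and 721, 633 and 848 in 22Rv1.

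G1 regulators were more often higher in 22Rv1 than in LNCaP95. CCND1, which encodes cyclin D1, was at 1649, 2002 and 1680.4 in LNCaP95 and 20469, 23907 and 24770.5 in 22Rv1, 13-fold lower in LNCaP95 (-3.70 ± 0.11, adjusted p = 3.5e-09), the reverse of CCND2. The inhibitors CDKN2A, the p16 and ARF gene (-3.62 ± 0.11), and CDKN1B, p27 (-1.64 ± 0.09), and the kinase CDK2 (-1.47 ± 0.08) were lower too. RB1 overlapped (1653, 1717 and 1786 and 1558, 2006 and 2182, -0.14 ± 0.12, adjusted p = 0.31), and so did the p21 gene CDKN1A (-0.01 ± 0.11). Of 21 G1 genes 2 were higher and 9 lower (median -0.52), and with both libraries that stand apart left out, 4 were higher. The other 10 were not called at 2-fold, and the share lower was above the 23.6% of all tested genes.

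DNA replication genes were lower in LNCaP95 while mitotic genes differed little. Of 31 replication genes 0 were at least 2-fold higher and 14 lower, with a median of -0.77. With equal totals 8 were lower, at a median of -0.63. The ligase LIG1 was at 556, 564 and 678 in LNCaP95 and 4183, 3229 and 3197 in 22Rv1 (-2.55 ± 0.13), and the helicase subunits MCM4 (-1.47 ± 0.08) and MCM5 (-1.68 ± 0.11) and GINS3 (-1.64 ± 0.11) were lower. Of 26 mitotic genes 1 was higher and 2 were lower (median -0.34), both shares below those of all genes. CDK1, the mitotic kinase, was the one higher, at 11917, 14901 and 12434 against 3579, 3297 and 3206 (1.96 ± 0.10, adjusted p = 1.0e-07), and the kinesins KIF11 (-1.56 ± 0.11) and KIF23 (-1.64 ± 0.09) were lower. MKI67, the Ki-67 antigen, was at 5025, 3118 and 5362 in LNCaP95 and 5753, 6976 and 6533 in 22Rv1 (-0.55 ± 0.18, adjusted p = 0.021). That call was lost without replicate 2 (adjusted p = 0.088) or replicate 3 (adjusted p = 0.065) of 22Rv1, without both libraries that stand apart (adjusted p = 0.052), with equal totals (adjusted p = 0.085) and in 1 fit of all 27 libraries (adjusted p = 0.20).

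Most DNA repair genes were not called at 2-fold, which also held over all tested genes, of which 17.0% were higher and 23.6% lower. Of 9 mismatch repair genes 2 were higher at 2-fold and 1 lower (median 0.20), but MSH3 (1.02 ± 0.15) and MLH3 (1.08 ± 0.11) lay so close to 2-fold that the number higher was 1 without replicate 1 or 3 of LNCaP95 or replicate 3 of 22Rv1 and 0 without replicate 1 of 22Rv1. In homologous recombination BARD1 was higher (4400.3, 4774 and 4637 and 297, 435 and 406, 3.62 ± 0.14) and its partner BRCA1 lower (-1.08 ± 0.10), BRCA2 was higher by 0.65 ± 0.14 (adjusted p = 0.0015), and 2 of 20 genes were higher and 3 lower at 2-fold (median -0.28). Both of these shares were under those of all tested genes. Without replicate 1 or 3 of LNCaP95, or replicate 1 of 22Rv1, 1 was higher, and with equal totals 1 was lower.

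Cytosolic ribosomal protein genes were lower in LNCaP95 as a body. By limma all 25 listed passed the test, 23 of them at least 2-fold lower and 0 higher, with a median of -1.71, or -1.57 with equal totals and -1.34 after quantile normalisation. In this list, as for replication and cholesterol synthesis, 0 genes were higher at 2-fold also by edgeR, by DESeq2 and by limma at an unadjusted p under 0.05. RPL3 was at 19391, 20487 and 19739 in LNCaP95, 87177, 79491 and 75903 in 22Rv1 and 115450.0, 123310.0 and 132330.0 in LNCaP (-2.02 ± 0.10, adjusted p = 6.9e-08), and RPL13A (-2.52 ± 0.12), RPL18 (-1.92 ± 0.09) and RPL27A (-1.85 ± 0.10) were lower as well. LNCaP thus lay on the side of 22Rv1 for RPL3. Such genes have many pseudogene copies that may share reads. The difference between the lines also moved with transcript length: its median was -0.25 in the quintile of tested genes whose longest transcript is shortest and 0.20 in the quintile where it is longest. Of the 25 ribosomal protein genes 15 were in the shortest quintile, and the part of length in their result was not tested.

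Growth signalling differed at single nodes. PIK3CD, a catalytic subunit of phosphoinositide 3-kinase usual in leukocytes, was at 3804, 3664 and 3693 in LNCaP95, 3.95, 1.2 and 12.4 in 22Rv1 and 1133, 977 and 970.4 in LNCaP, and the regulatory subunit PIK3R1 was higher too (2.34 ± 0.11). The insulin receptor substrates IRS1 (145, 117 and 126 and 1186, 1386 and 1474, -3.37 ± 0.13) and IRS2 (-3.45 ± 0.11) were lower in LNCaP95. Of 24 genes 7 were higher and 4 lower (median 0.09). In the IGF axis, with 6 of 12 genes tested, 2 were higher, such as IGF2R (1.62 ± 0.13), and 2 lower, such as IGF1R (-1.41 ± 0.15).

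Immediate early genes and the feedback inhibitors of the MAP kinase pathway were mostly higher in 22Rv1. Of 18 tested 14 were at least 2-fold lower in LNCaP95 and 1 higher, with a median of -2.01. FOS was at 45.8, 99.4 and 91.8 in LNCaP95 and 5939.7, 5430.3 and 6804 in 22Rv1 (-6.31 ± 0.25, adjusted p = 1.9e-08), IER3 was at 0 and 54, 57.8 and 42.3, and the ERK phosphatase DUSP6 at 15, 8.61 and 9.11 and 337, 283 and 299 (-4.73 ± 0.24). DUSP5, a nuclear ERK phosphatase, was the one higher in LNCaP95, at 2234, 2598 and 2507 against 7.91, 8.43 and 12.4 (7.88 ± 0.18). MYC overlapped (6768, 4909.5 and 6608 and 6571, 6641 and 6302, -0.11 ± 0.12). FOS in the LNCaP libraries was 60, 1026 and 204, with replicate 2 far above the others. Among 13 tested ETS factors ETV1, which is moved next to androgen-driven sequence in LNCaP, was at 5329, 4010.2 and 5506 in LNCaP95 and 209.5, 389 and 340.4 in 22Rv1 (4.01 ± 0.21). ETV4 was lower (-4.48 ± 0.22), with SPDEF (-1.94 ± 0.13) and ELF5 (-2.88 ± 0.24), and 5 were higher and 4 lower in all. Without replicate 1 of 22Rv1, 3 were higher.

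WNT genes moved both ways, 9 higher and 8 lower of 28 tested (median 0.22). DKK1, a secreted WNT inhibitor, was at 513, 610.3 and 567 in 22Rv1 with 1 read in LNCaP95, and LGR5, a stem cell receptor for R-spondin, was at 270.2, 239.6 and 269 and 0. The receptor FZD8 was lower in LNCaP95 (-2.93 ± 0.14) and the ligand WNT7B higher (3.40 ± 0.16).

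Genes of antigen presentation were more often higher than lower in LNCaP95, and HLA genes of MHC class I, which display peptides at the cell surface, were among the higher ones. HLA-B was at 1173, 1102 and 989.7 in LNCaP95, 204, 148 and 147 in 22Rv1 and 1101, 792 and 841 in LNCaP (2.71 ± 0.15, adjusted p = 1.4e-07). HLA-C (2.09 ± 0.13) and the peptide transporter TAP2 (1.62 ± 0.09) were higher as well. The shared light chain gene B2M differed by 0.29 ± 0.09 (adjusted p = 0.012), a call lost without replicate 2 of 22Rv1 (adjusted p = 0.053) and without both libraries that stand apart (adjusted p = 0.071). Of 16 tested genes of this list 8 were higher and 2 lower (median 1.27). HLA genes are near-identical copies that may share reads, so their values are uncertain. Interferon-response genes were higher for 9 and lower for 3 of 23 tested (median 0.59). IFI6 was at 599.6, 661 and 562 and 22.4, 14.4 and 8.25, IFIT1 at 165, 134 and 151 and 1.32, 1.2 and 4.13, and UBE2L6, which attaches ISG15, was higher too (4.54 ± 0.30), while MX2 was at 0 in LNCaP95 and 27.7, 39.7 and 32 in 22Rv1. Of 10 tested cancer-testis antigens MAGEA10 and PRAME (2.61 ± 0.11) were at least 2-fold higher in LNCaP95, and 3 were lower, MAGEA4 (5895, 5859 and 5991 in 22Rv1 and 7.92, 0 and 1.52 in LNCaP95) and CTAG2 (4953, 4208 and 4146 and 4.4, 0.783 and 0) among them. These genes have near-identical copies, and both counts were near the shares of all tested genes.

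Redox genes differed in both directions, while most genes of glycolysis and of the ATF4 and amino acid list were not called at 2-fold. In the NRF2 and glutathione list 6 of 23 were higher and 7 lower (median -0.12). The quinone reductase NQO1 was at 9740.0, 10579.7 and 9869.8 and 861, 648 and 552 (3.90 ± 0.14), and the glutathione transferases divided, GSTM3 being higher (4.98 ± 0.13) and GSTM4 lower (0.88, 1.57 and 0.759 and 449, 397 and 342). In glycolysis 3 of 22 were higher and 2 lower (median 0.25), both shares under those of all tested genes, with 6 higher after quantile normalisation. PFKP, platelet phosphofructokinase, was at 3633, 3840.4 and 3931 and 274, 253 and 239 (3.89 ± 0.09), and ENO1 (1.58 ± 0.10) and the lactate carrier SLC16A1 (1.62 ± 0.12) were higher. In the ATF4 and amino acid list 3 of 28 were higher and 5 lower (median -0.49), again under the shares of all tested genes. With both libraries that stand apart left out, 9 were lower. SLC7A5, a carrier of large neutral amino acids, was at 144, 83.7 and 99.4 and 3665, 5249.7 and 4305 (-5.35 ± 0.20), while CTH (2.16 ± 0.19), STC2 (1.93 ± 0.20) and PHGDH (1.13 ± 0.11) were higher in LNCaP95. Of the 13 mitochondrially encoded genes 4 were called, all lower, and 0 reached 2-fold by limma, edgeR or DESeq2, or by limma at an unadjusted p under 0.05. Without replicate 1 of LNCaP95, which was the highest of that line for MT-CO2, 2 did, and without both libraries that stand apart 1 did. MT-CO2 was at 49254, 36719.9 and 29905 and 66937, 62132 and 72095, a call lost in 1 fit of all 27 libraries (adjusted p = 0.052). MT-ND2 and MT-ND5, also among the 4, lost their calls with equal totals, quantile normalisation, DESeq2, 1 fit of all 27 libraries and without replicate 2 or 3 of either line.

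**Figure D3:**
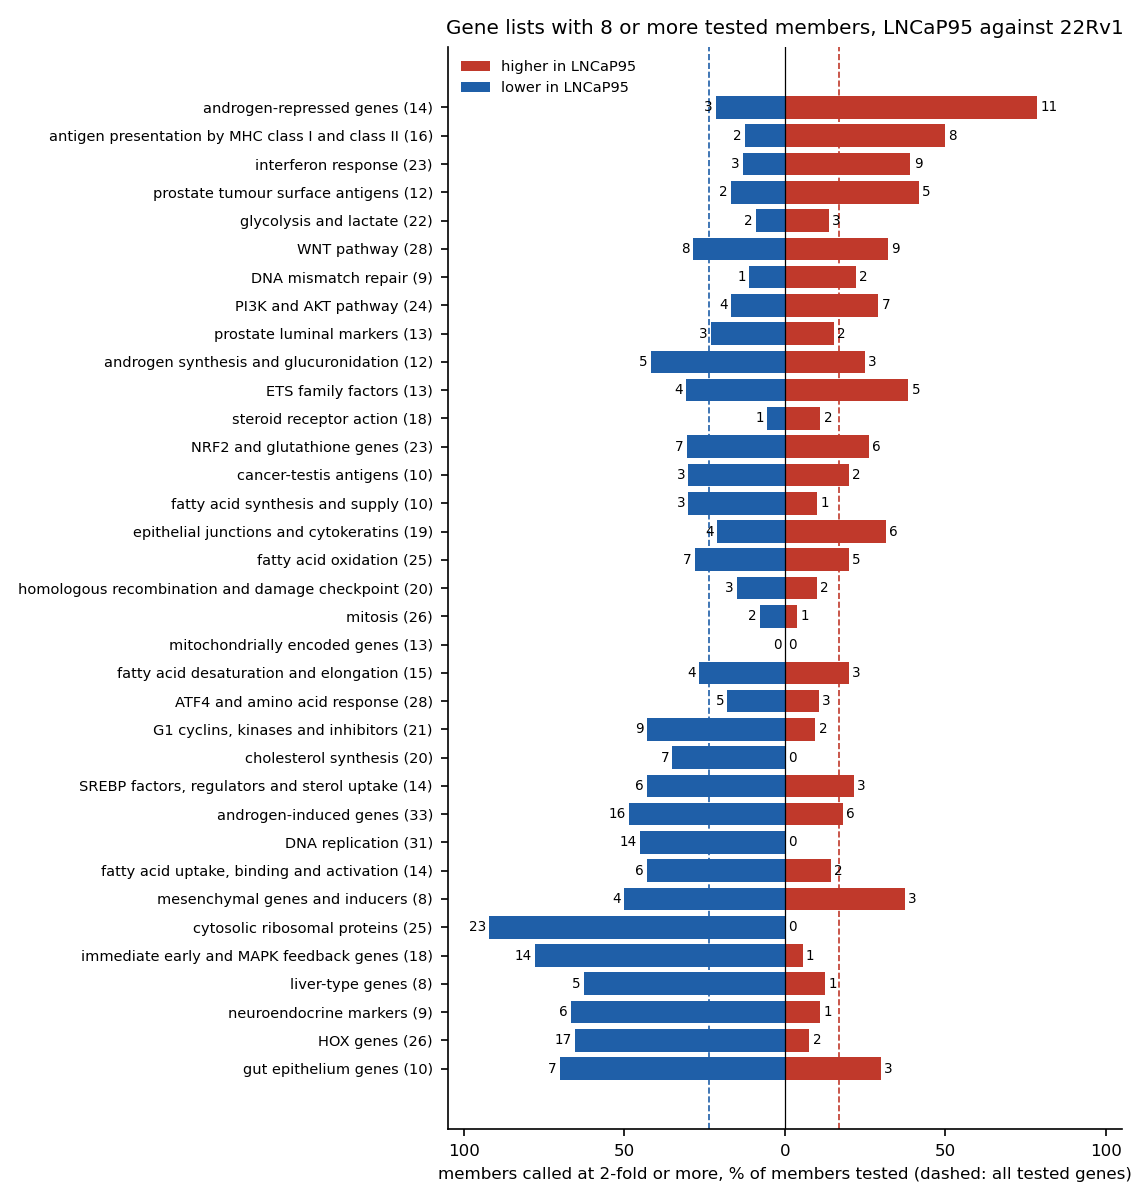
Share of tested members (x, %) called at least 2-fold higher (right) or lower (left) in LNCaP95 for gene lists with 8 or more tested members (number in parentheses; 1 such list is not plotted), ordered by median difference; bar ends give counts and dashed lines the shares of all tested genes, 17.0% and 23.6%. Androgen-repressed genes reach 11 of 14 on the right, and ribosomal proteins 23 of 25 and HOX genes 17 of 26 on the left.

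HOX genes, which set position along the body axis, were mostly lower in LNCaP95 in the A, B and C clusters. Of 39 listed, 26 were tested, 17 at least 2-fold lower in LNCaP95 and 2 higher, with a median of -4.10 that was the same with the 3 members at 0 set to their bounds. HOXC10 was at 381, 504 and 489 in 22Rv1 and 0, 0.783 and 0 in LNCaP95, HOXB8 at 246, 211 and 200.1 and 0, 0.783 and 0, and HOXB5 at 173, 158 and 157 and 0.88, 0 and 0. The members higher at 2-fold were HOXC13 and HOXD13 (4.58), and 4 were higher after quantile normalisation. HOXC13 lay at the 2-fold limit, and 1 member was higher without replicate 2 or 3 of LNCaP95 or replicate 2 of 22Rv1. HOXB13, the posterior prostate member, was among the 7 that were not called at 2-fold in either direction.

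Tested genes placed next to each other often differed together. In the order of RefSeq genes on GRCh38, which places 13500 of the tested genes, 343 runs of at least 3 neighbours were called at 2-fold in one direction, 142 higher and 201 lower in LNCaP95, with 1312 genes in all. How many such runs the share of calls alone would give was not tested. The longest, 15 genes, was PCDHA1 to PCDHB1, the alpha protocadherins of neurons, with means of 16 to 532 in 22Rv1 and at most 7.02 in LNCaP95. PCDHA13 was at 415, 586 and 595 and 0, at least 670.2-fold. Alpha protocadherins share their last exons, so reads there cannot be given to 1 gene. LNCaP was under a mean of 10 for 13 of the 15, and the call of PCDHB1 was lost after quantile normalisation. The second run held 13 zinc finger genes from ZNF429 to ZNF724P, with log2 differences of -7.28 to -1.07. ZNF43 was at 49.3, 26.6 and 21.3 in LNCaP95 and 838, 1106 and 1004 in 22Rv1, and 335, 251 and 318 in LNCaP. These are near-identical repeats too, and LNCaP was under 10 for 7 of them.

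The run from HOXA3 to EVX1, 9 genes, had LNCaP95 means of at most 3.5 and 22Rv1 means of 31.7 to 247. HOXA5 was at 246, 244 and 251 in 22Rv1, 0, 1.57 and 1.52 in LNCaP95 and 39.2, 33.2 and 35 in LNCaP, and HOXA10 at 109, 146 and 149, 3.52, 1.57 and 2.28 and 85.4, 148 and 147. For these 2 genes LNCaP95 was thus below its parent line, whereas HOXA4 and HOXA9 were at 0 in all 6 libraries of LNCaP95 and LNCaP. Further runs lower in LNCaP95 were DBP to NUCB1 with 11 genes, PNMA2 to SCARA3 with 10 and CCDC155 to FCGRT with 9. DBP to NUCB1 holds PLEKHA4 (0.88, 0 and 0.759 and 382, 309 and 302), PPP1R15A, which ends the stress block on translation (-3.63 ± 0.19), and BCAT2, which breaks down branched amino acids (-1.65 ± 0.09). PNMA2 to SCARA3 holds CLU, the nicotinic receptor subunit CHRNA2 (2.64, 0 and 1.52 and 1512, 1347 and 1488) and the kinase PTK2B (-2.17 ± 0.08). CCDC155 to FCGRT holds the ribosomal protein gene RPL13A and the antibody receptor FCGRT (2.64, 5.48 and 3.79 and 241, 213 and 240.3). The longest run higher in LNCaP95 was SRBD1 to MCFD2 with 9 genes, at differences of 1.05 to 3.23. EPAS1, the hypoxia factor HIF-2 alpha, was at 630.4, 479.8 and 489.5 in LNCaP95, 46.1, 63.8 and 57.8 in 22Rv1 and 23.1, 25.6 and 36 in LNCaP (3.23 ± 0.18), and MCFD2, a cargo receptor, at 1269.5, 1194 and 1145 and 273, 313 and 329. All 9 genes of that run were read in both lines.

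**Figure D4:**
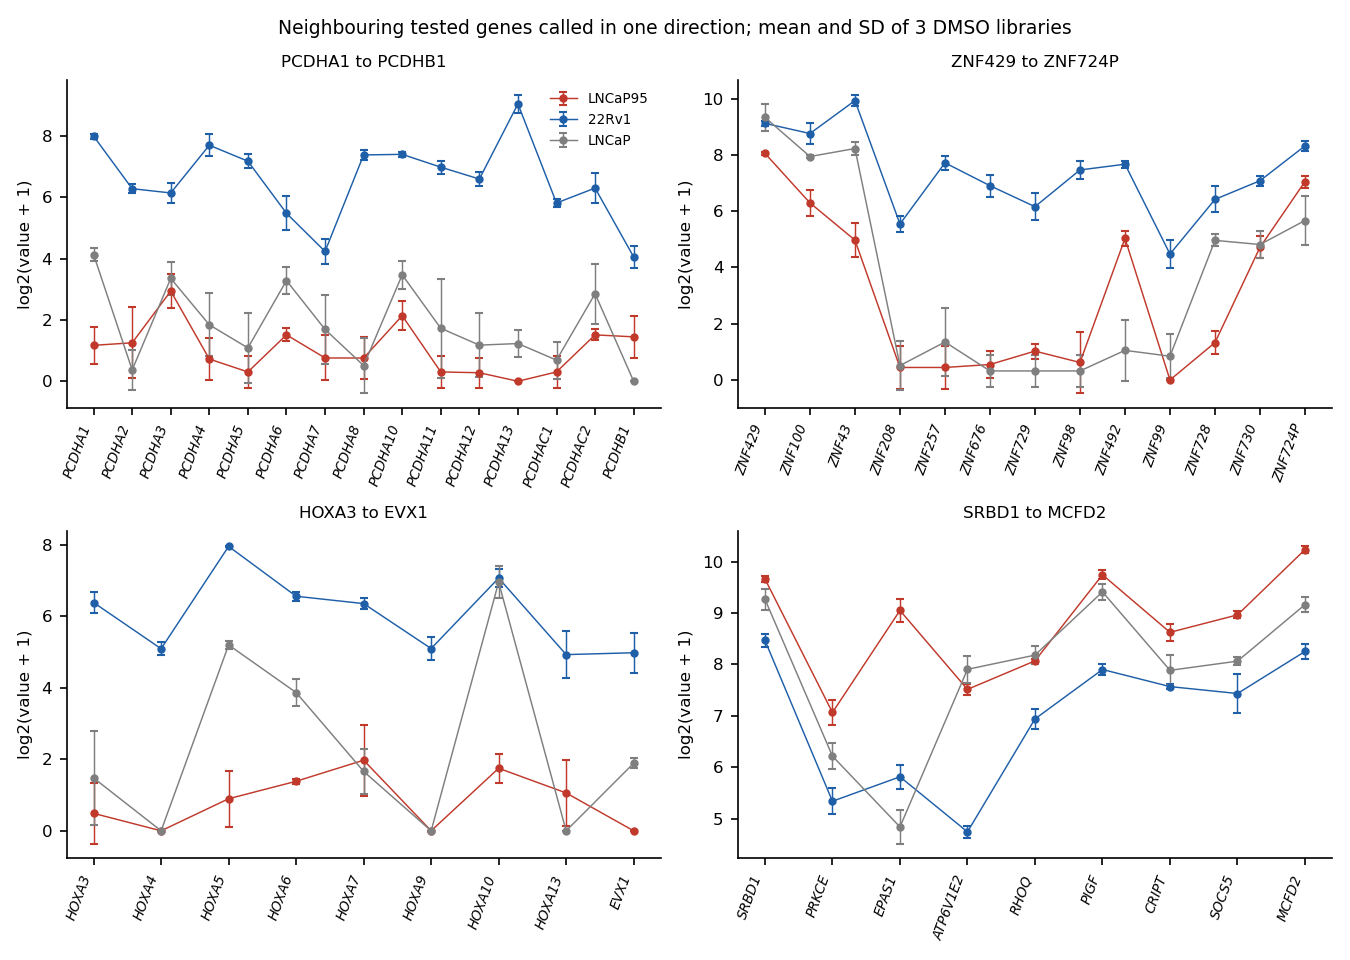
Mean log2(value + 1) with SD of 3 DMSO libraries for LNCaP95, 22Rv1 and LNCaP over 4 runs of neighbouring tested genes, in RefSeq order. In the first 3 runs 22Rv1 lies above LNCaP95 at every gene, and LNCaP rises to 22Rv1 at HOXA10; in the last LNCaP95 lies above 22Rv1 at every gene.

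Some list differences were not the same in the dosed libraries. Over the 26 mitotic genes 2 were at least 2-fold lower in LNCaP95 with DMSO, 22 at 100 nM and 21 at 500 nM, with medians of -0.34, -1.38 and -1.34. Over the 31 replication genes the counts were 14, 28 and 28. CDK1 differed by 1.96 with DMSO and by 0.29 and 0.49 at the doses. In the ATF4 list the number higher went from 3 with DMSO to 10 and 9, and its median from -0.49 to 0.80 and 0.79. Ribosomal proteins had 23 lower with DMSO and at each dose, HOX genes had 17, 18 and 18 lower, and androgen-repressed genes 11, 10 and 10 higher. A limma interaction of line and dose was called for 2575 genes at 100 nM and 3451 at 500 nM of the 13758 tested. FUT1, a fucosyltransferase, differed by -1.90 ± 0.16 with DMSO and by -0.19 and -0.01 at the doses.

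**Figure D5:**
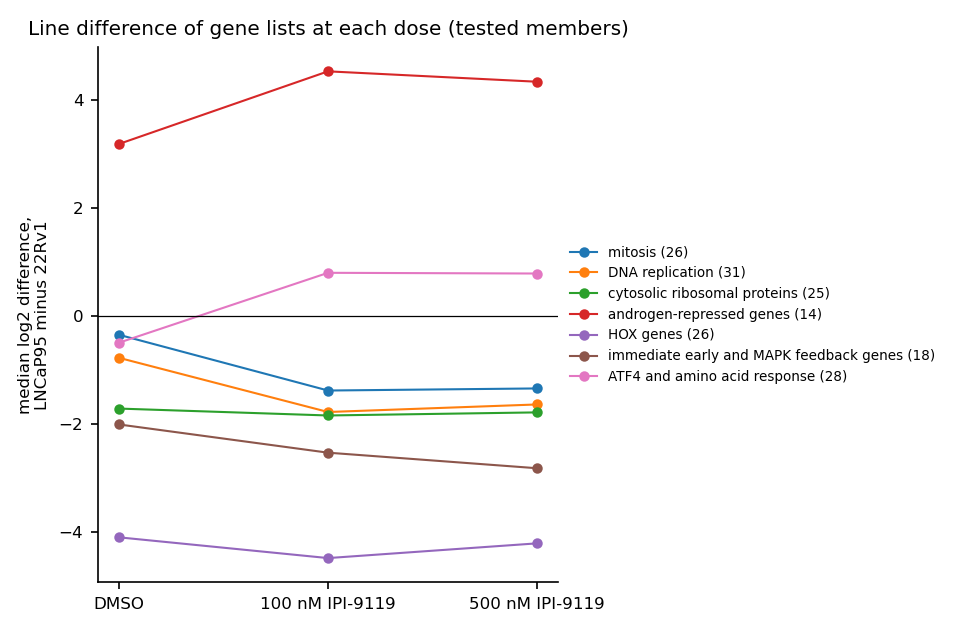
Median log2 difference, LNCaP95 minus 22Rv1 (y), of the tested members of 7 gene lists in libraries with DMSO, 100 nM and 500 nM IPI-9119 (x); numbers of members are in parentheses. The medians of mitosis and DNA replication are lower at both doses than with DMSO, that of the ATF4 list changes sign, and those of HOX genes and ribosomal proteins stay near their DMSO values of -4.10 and -1.71.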

How the data were processed

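Poly(A) RNA was sequenced as paired ends from directional libraries, per the labels' protocols. The submitters' processing notes name STAR 2.3.1z4, featureCounts, DESeq and hg19. No source used here gives the strand setting of the counting, which leaves overlapping and antisense genes uncertain. The deposited values are a normalised signal, and the values themselves show each to be a gene's count divided by 1 factor per library. Within a tolerance of 1e-06, 100% of values were whole multiples of what 1 read is worth, and median-of-ratios factors over all 27 libraries recomputed from those reads equalled the deposited ones. Columns of no sample numbered 0.

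Values were tested as log2(value + 1) with limma 3.58.1 (trend, two-sided, Benjamini-Hochberg over 13758 genes) in R 4.3.3, on 3 against 3 libraries. This scale understates differences of low genes. Errors after ± are standard errors of log2 differences, n = 3 per group. A call is an adjusted p under 0.05, with 2-fold (a log2 difference of 1) as a second rule. Where a line held 0 reads, folds are set against a floor of 3 reads over its 3 libraries, and with 1 to 3 reads exact 95% counting intervals are given. Whole reads were tested as an alternative with edgeR 4.0.16 and DESeq2 1.42.0, beside other pseudocounts, filters, scalings, weights, a fit of all 27 libraries, a replicate block and each library left out. The functions were tested on simulated data.

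Named genes are a panel of 46, the 15 with the largest difference in each line (higher mean of 50 or more, no overlap), up to 4 members of each of 42 lists by smallest p, the longest runs of neighbours and the 10 highest genes of each line with at most 3 reads in the other; a few others were added after their values were seen, and some named by this rule are not reported here. Members and lists were chosen with earlier results of these data known. Symbols were matched to RefSeq (19619 genes), Y-linked genes and XIST are not reported, and GRCh38 coordinates are given for promoter sequences alone. Transcript lengths are from GENCODE 29.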

Additional observations from a re-analysis of the deposited data

Results flagged for a closer look

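CPT1A lay higher in every LNCaP95 library than in every 22Rv1 library with DMSO, though the difference was not called, and lower in every LNCaP95 library at both doses, by -0.75 at 100 nM and -0.97 at 500 nM on the log2 scale. With DMSO its values were 3415, 3091 and 3541 in LNCaP95 and 3081, 3050.4 and 3082 in 22Rv1, and at 500 nM 935, 775 and 799 and 1409, 1783 and 1740.3. The change in the line difference was -0.87 ± 0.13 at 100 nM (limma interaction, adjusted p = 0.0010) and -1.09 ± 0.14 at 500 nM (adjusted p = 1.5e-04). ATF4, the factor of the integrated stress response, was lower in every LNCaP95 library with DMSO and higher in every one at 500 nM, by 0.38. Its values went from 9700.4, 8479 and 8053 with DMSO to 18195, 16588 and 17572 at 500 nM in LNCaP95, and were 16134, 15217 and 12370.3 and then 12808, 13539 and 13881 in 22Rv1. The change in the difference was 1.11 ± 0.15 (limma interaction, adjusted p = 1.8e-04).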

How the results depend on the processing

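The numbers of genes called stayed within 1.5 times under every alternative, with 1 exception by construction: a filter of 10 in all 6 libraries, which drops genes near 0 in one line and tested 11517 genes with DMSO, gave 3542 genes at 2-fold with DMSO, 3719 at 500 nM and 3833 at 100 nM, against 5583, 5691 and 5809. Leaving out each library in turn gave 9653 to 10453 calls with DMSO against 10369, and 5408 to 5715 at 2-fold. At 500 nM it gave 10480 to 10818 against 11012 and 5591 to 5743 at 2-fold, and at 100 nM 9492 to 10548 against 10361 and 5651 to 5958. On whole reads edgeR and DESeq2 gave 5547 and 5526 at 2-fold. With both libraries that stand apart left out, chosen after seeing the data, 9039 genes were called and 5702 at 2-fold. Equal replicate numbers did not deviate together (correlations of -0.035, -0.012 and 0.028), so the numbers do not pair the samples, and a replicate block gave 10130 calls, 5592 at 2-fold, with DMSO, 10303 and 5820 at 100 nM, and 10679 and 5695 at 500 nM. Of 276 named genes called, 266 kept call and direction under each of the 19 alternatives that tested them, 10 lost the call under at least 1 and 0 changed sign. The filter of 10 in all 6 libraries tested 167 of the 286 named genes and that of mean 50 tested 248, so genes near 0 in one line were not tested there. The sign turned only for genes not called as deposited: HOXB13 with quantile normalisation (-0.0050), without 22Rv1 replicate 2 or LNCaP95 replicate 1 (-0.064 and -0.0060, in a leave-one-out range of -0.064 to 0.076) and without both libraries that stand apart (-0.0026); FASN (0.25), CAV1 (0.75) and CD68 (0.95) with quantile normalisation, where FASN (limma, adjusted p = 0.036) and CD68 (adjusted p = 0.038) were called; CDKN1A with equal totals (0.13), edgeR (0.043), DESeq2 (0.022) and without LNCaP95 replicate 3 or 22Rv1 replicate 2 (0.10 and 0.013, in a range of -0.080 to 0.10); and MYC with equal totals (0.031) and without LNCaP95 replicate 2 (0.040, in a range of -0.19 to 0.040). The cause was not tested. Further counts of list members moved by over 1.5 times: with quantile normalisation, liver-type genes higher went from 1 to 2 and the lower members of the IGF, antigen presentation and fibroblast lists from 2 to 1 each, and with array weights the higher members of mismatch repair, homologous recombination and steroid receptor action went from 2 to 1 each and the lower ones of fatty acid synthesis from 3 to 1. Values near 0 are limited by depth, 1 read being worth 0.759 to 1.32 units here.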
